A study of Mus musculus with 4 samples.

Results

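The genes that fat cells use to build, fill and empty a lipid droplet were read in the tibial bone marrow of obese mice with and without treadmill exercise. The members are 10 of the 55401 genes in the tables, chosen by name: Adipoq, Pparg, Lpl, Fabp4, Cd36, Plin1, Plin2, Plin3, Pnpla2 and Lipe. They comprise 54 of the 142604 transcripts listed. Plin2, Fabp4 and Cd36 were abundant, 6 members were at lower levels, and Plin1, the coat of the large droplet of a mature fat cell, was almost without reads. Between the groups no member passed the test. Both exercised libraries lay above both others for Fabp4, Plin2 and Lpl, 3 of the 9 members tested. The groups did not overlap for 32.6% of all genes, and 14.3% were higher in both exercised libraries.

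All the mice were wild-type C57/B6 males that received a high-fat diet (HFD) from the age of 8 weeks. The obese mice that did not run are named Ob, and those that also ran on a treadmill at moderate intensity for 12 weeks are named Ob + Exe. The diet is thus shared by both groups, and no lean group was analysed here. Poly-A RNA of 2 marrows per group was sequenced, with 1 library each. The methods describe marrow spun out of the bone, and the libraries were taken to come from separate mice. If they did not, the p values measure technical spread.

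A fat cell takes up fatty acids that lipoprotein lipase frees from circulating fat, esterifies them and stores the triglyceride in a droplet coated by perilipins. Lipases at the droplet surface release the fatty acids again. In marrow the adipocytes stand among blood-forming cells, and they arise from the stromal cells that also carry the leptin receptor. Macrophages, endothelial cells and platelets use some of the same genes, so a level in whole marrow adds all these cells together. In such bulk samples, fewer cells of a type and less RNA per cell cannot be told apart.

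The coverage of transcripts amounted to 53038186 and 50423542 read equivalents of 150 bases in the Ob libraries and to 44310505 and 46668748 in the Ob + Exe libraries. Genes above 0 also numbered more in Ob (23309 and 20663) than in Ob + Exe (17752 and 19291). Values are scaled FPKM: fragments per kilobase of transcript, relative to the size of the library, summed over the transcripts of a gene and divided by a factor per library of 0.945 to 1.04. The labels name mesenchymal stem cells and fibroblasts besides bone marrow, but the markers of blood cells prevailed. The summed scaled FPKM of 7 erythroid genes ranged from 41440 to 65450 and that of 8 neutrophil genes from 26750 to 62890, against 11.45 to 17.94 for 7 fibroblast genes. With 2 libraries against 2, no exact permutation test of a single value can give a two-sided p below 0.333.

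The members differed far more from each other than between the groups. Their mean scaled FPKM over the 4 libraries was 77.4 for Plin2, 74.4 for Fabp4 and 42.8 for Cd36. These 3 genes held 80.3% and 76.6% of the summed level of the members in Ob against 80.8% and 82.1% in Ob + Exe. Next came Pnpla2 with 11.4 and Lpl with 11.3, then Pparg with 7.01, Lipe with 6.87, Plin3 with 5.92 and Adipoq with 5.68. Plin1 was last with 0.0138. The ranges over the libraries did not overlap between Fabp4 and Cd36, Cd36 and Pnpla2, Lpl and Pparg, or Adipoq and Plin1. The other neighbours in this order overlapped. Among the 18596 genes that reached a mean FPKM of 0.1, Plin2 stood at the 96.2nd percentile of the mean level and Adipoq at the 58.1st. The levels of the members add up to 218.1 and 209.9 in Ob against 258.6 and 285.1 in Ob + Exe, so both exercised libraries were higher in the sum. Plin2 and Fabp4, the most abundant members, weigh most in this sum and were themselves higher in both exercised libraries. The sum therefore does not describe the other members.

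**Figure D1:**
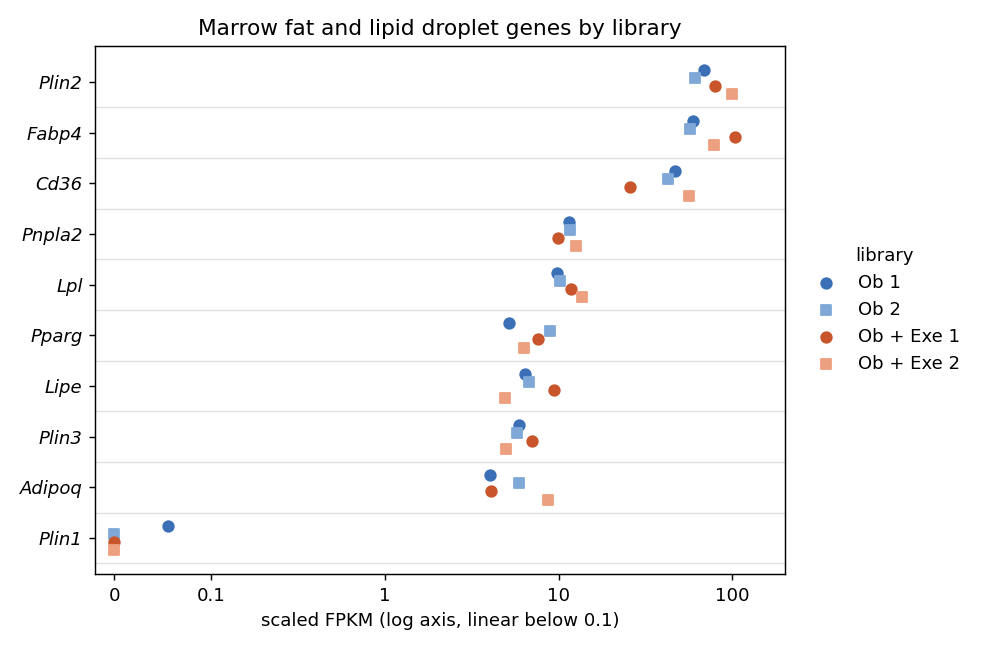
Scaled FPKM of the 10 genes in each library (horizontal axis, logarithmic and linear below 0.1), ordered by the mean over the 4 libraries. Both Ob + Exe libraries are to the right of both Ob libraries for Plin2, Fabp4 and Lpl, while the Ob + Exe libraries lie on either side of the Ob libraries for Cd36, Pnpla2, Lipe and Plin3.

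Genes were called in Ob + Exe against Ob by the study's own limits, an unadjusted p under 0.05 (here from limma) and a log2 fold change of more than 1 in size. None of the 9 members tested was called (0 with limma voom as well), against 3.74% of all genes. At an unadjusted p under 0.05 alone there was 1, Fabp4, against 5.05% of all genes. The groups did not overlap for 3 of the 9, against 32.6% of all genes. All 3 were higher in Ob + Exe, against 14.3% of all genes in that direction. The log2 fold change was above 0 for 7 members and below 0 for 2, against 48.3% of all genes above 0. Its median was 0.05 over the members and -0.02 over all genes. The adjusted p of the members in limma with the Benjamini-Hochberg method lay between 0.959 and 0.998. Of all genes, 696 were called, 186 of them higher and 510 lower in Ob + Exe, and the split was 246 higher and 416 lower after quantile normalization. No gene had an adjusted p under 0.05 in limma or in limma voom, with 940 and 713 genes at an unadjusted p under 0.05.

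**Figure D2:**
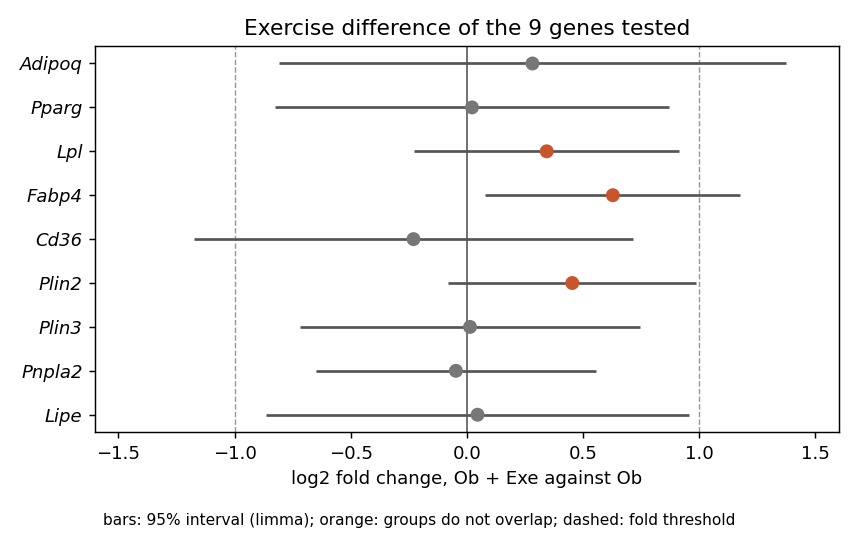
Log2 fold change of Ob + Exe against Ob (horizontal axis, on the log2 of scaled FPKM plus 0.1) of the 9 genes tested, with 95% intervals from limma. Orange points are genes whose groups do not overlap, and dashed lines mark the fold needed for a call. Only the interval of Fabp4, from 0.08 to 1.18, does not reach 0.

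Adipoq and Pparg were listed for the identity of the fat cell, but which marrow cells gave their reads was not tested. Adipoq (ENSMUSG00000022878.5, chr16:23146536-23158028, plus strand, GRCm38) encodes adiponectin, the hormone that fat cells secrete. Its scaled FPKM was 4.03 and 5.91 in Ob against 4.07 and 8.70 in Ob + Exe. The groups overlapped, with the lowest Ob + Exe library beside the lowest Ob library. Between the groups it differed by 0.28 on the log2 scale (SE 0.442, 95% interval from -0.81 to 1.37), and 311 to 616 read equivalents stood behind each value. All the reads lay on Adipoq-201, which encodes the full protein of 247 residues.

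Apart from Adipoq, the adipocyte markers were low or had no reads. Of 8 adipocyte markers, 3 passed the minimum of 0.1 FPKM: Adipoq, Cfd and Cidec. Cfd, which encodes the secreted protease adipsin, had 1.61 and 0.909 in Ob against 1.49 and 0.705 in Ob + Exe. Cidec, which lets droplets fuse, had 0.118 and 0.562 in Ob against 0.414 and 0 in Ob + Exe. Plin4, with a mean below that minimum, had 0.14 and 0.076 in Ob and was listed at 0 in both Ob + Exe libraries. Adig and Pck1 had reads in the first Ob library only, and Lep, the gene of leptin, was listed at 0 in all 4. The markers summed to 6.01 and 7.45 in Ob against 5.98 and 9.40 in Ob + Exe, most of it Adipoq.

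The stromal reticular cell of the marrow was read from 8 markers, of which 4 had log2 fold changes above 0 and 4 below, with none called. Their sum was 138.7 and 192.6 in Ob against 139.5 and 196.3 in Ob + Exe, with none at 0 in any library, and Cxcl12 made up most of it. The libraries stood in the order of Adipoq for that sum and for Lepr and Kitl, but not for the other 6 markers. Cxcl12, a chemokine that holds blood stem cells, had 92.7 and 141.8 in Ob against 88.3 and 142.0 in Ob + Exe. Lepr, the leptin receptor, had 3.68 and 4.89 in Ob against 3.93 and 7.21 in Ob + Exe. The ratio of Adipoq to Lepr was 1.10 and 1.21 in Ob against 1.04 and 1.21 in Ob + Exe, so it varied less than Adipoq did. This ratio and the order were chosen after the values were seen, and the part of the reticular cells in the level of Adipoq was not tested.

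**Figure D3:**
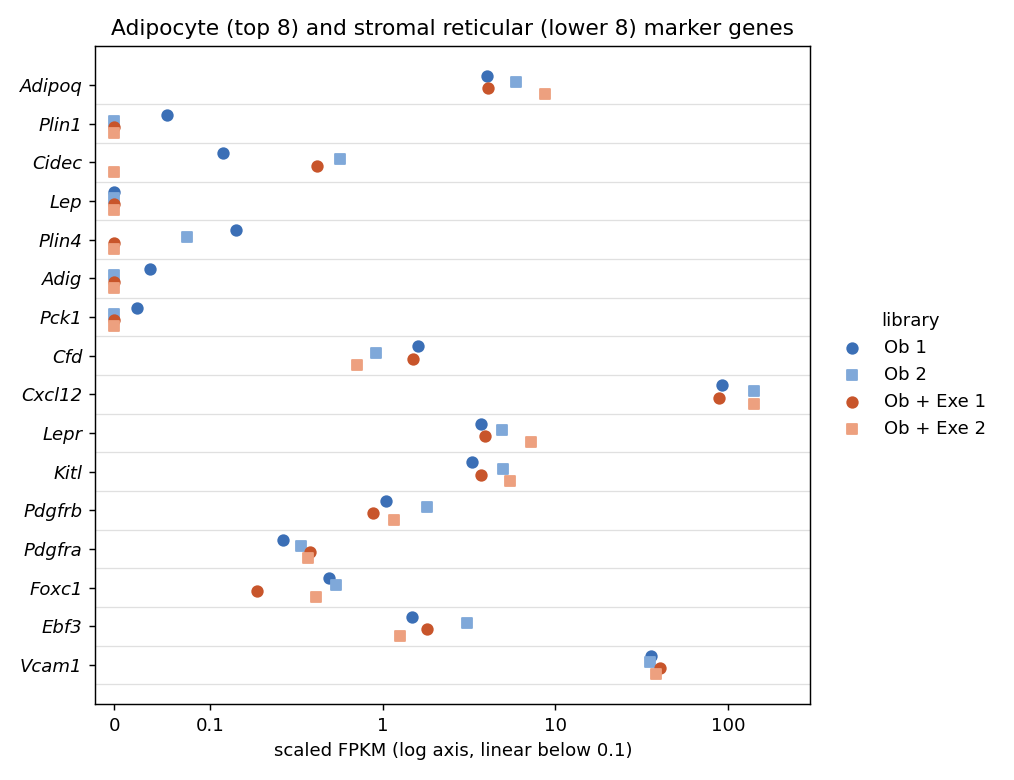
Scaled FPKM per library (horizontal axis, logarithmic and linear below 0.1) of 8 adipocyte markers and 8 markers of the stromal reticular cell. Apart from Adipoq and Cfd the adipocyte markers lie below 1 in every library, while Cxcl12 and Vcam1 lie above 30.

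Pparg (ENSMUSG00000000440.12, chr6:115360951-115490399, plus strand) encodes the nuclear receptor that directs the making of fat cells. It had 5.22 and 8.92 in Ob against 7.59 and 6.33 in Ob + Exe. Both Ob + Exe libraries lay between the Ob libraries, and the log2 fold change was 0.02 (SE 0.343, 95% interval from -0.82 to 0.87). The gene has alternative starts. The form known from fat tissue, Pparg2, begins at a later start site and carries 30 more residues at its amino end, with 505 in Pparg-201 against 475 in Pparg-202 and Pparg-204. Pparg-201 was listed at 0 in all 4 libraries. The reads were placed on Pparg-204 and Pparg-202, which differ in their starts and encode the same protein. Pparg-204 held 64.2% and 95.05% of the FPKM of the gene in Ob against 99.86% and 0% in Ob + Exe. Pparg-202 held 35.6% and 4.88% in Ob against 0% and 97.9% in Ob + Exe. The 2 transcripts thus changed places between the libraries of the same group. Quantification programs divide reads over shared exons by a fit, so such shares are uncertain, and the sum is the firmer value.

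To show how the start listed at 0 differs from those with reads, the bases before the listed starts are printed here from the RefSeq promoters of GRCm38.p6 on the plus strand, 5′ to 3′, with each CG in capitals (the last C of the first line belongs to a CG that the end cuts). The first ends just before Pparg-202 (chr6:115360894-115360950), the second just before Pparg-204 (chr6:115362099-115362291) and the third just before Pparg-201 (chr6:115421816-115422065).
Before Pparg-202: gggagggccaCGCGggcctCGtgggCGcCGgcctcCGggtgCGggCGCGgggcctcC
Before Pparg-204: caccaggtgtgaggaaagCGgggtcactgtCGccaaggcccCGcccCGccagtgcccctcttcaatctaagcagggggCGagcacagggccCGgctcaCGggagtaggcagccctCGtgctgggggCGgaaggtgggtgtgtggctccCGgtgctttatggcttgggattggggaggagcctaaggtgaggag
Before Pparg-201: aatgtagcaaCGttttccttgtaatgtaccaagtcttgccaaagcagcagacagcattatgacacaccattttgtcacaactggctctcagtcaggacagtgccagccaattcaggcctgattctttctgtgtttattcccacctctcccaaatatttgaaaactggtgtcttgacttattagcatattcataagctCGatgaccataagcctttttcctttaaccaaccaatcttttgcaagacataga

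Over the full 250 bases before each RefSeq start site, the windows at 115361144, 115362349 and 115422066 held 38, 12 and 2 CG, against a median of 6 over 32851 mouse promoters. Of all promoters, 98.4%, 68.5% and 29.0% held at most as many. Only the first 57 and 193 bases of the first and second window lie before the listed transcript starts, with 9 and 10 CG there. The third window lies wholly before its start. The start of Pparg2 thus stood out by its few CG and its GC content of 40.8%, against 82.4% and 63.6%. The coding start of Pparg-201 shows what its reads would have held. In the line that follows, the first ATG in capitals opens the protein of 505 residues and the second, 90 bases on, opens that of 475. Its first 82 bases lie in the first exon (chr6:115422111-115422192), which neither Pparg-202 nor Pparg-204 holds.
Pparg-201 coding start: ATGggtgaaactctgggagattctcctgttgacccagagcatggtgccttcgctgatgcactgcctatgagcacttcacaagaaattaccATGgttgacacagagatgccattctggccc

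RefSeq promoters were matched for 8 of the 10 members, with 11 windows in all. PPARgamma binds with its partner RXR to repeats of AGGTCA. The perfect direct repeat of AGGTCA with 1 base between, on either strand, was in none of the 11 windows and in 0.033% of all promoters. The single AGGTCA was in 4 of the 11, those of Cd36 and Plin2 and the first pair of Pparg, and in 14.024% of all. In the Pparg windows the match lies 28 and 9 bases before the RefSeq start, which is after the listed transcript start. These letters describe the windows only.

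Lpl, Fabp4 and Cd36 supply the cell with fatty acids. Fabp4 (ENSMUSG00000062515.3, chr3:10204088-10208576, minus strand) encodes a small carrier of fatty acids in the cytoplasm of fat cells, macrophages and endothelial cells. It showed the largest difference among the members. Its scaled FPKM was 59.2 and 57.0 in Ob against 103.4 and 78.1 in Ob + Exe. The Ob libraries were close to each other and the Ob + Exe libraries were apart from them and from each other. The mean was 58.1 ± 1.56 (SD, n = 2) in Ob against 90.8 ± 17.9 (SD, n = 2) in Ob + Exe, a ratio of 1.56. The log2 fold change was 0.63 (SE 0.222, 95% interval from 0.08 to 1.18), with an unadjusted p of 0.0312 and an adjusted p of 0.959 in limma. It was short of the fold for a call. The difference kept its sign without each library, at 0.42 without Ob + Exe 1 and 0.82 without Ob + Exe 2. With the crossed pairing of replicate numbers, added after seeing the data, the unadjusted p in limma was 0.00952. In the other alternative settings with all 4 libraries it ranged from 0.0299 (pseudocount of 1) to 0.104 (no intensity trend). The protein-coding Fabp4-201 (132 residues) held between 96.0% and 97.96% of its FPKM.

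Lpl (ENSMUSG00000015568.16, chr8:68880491-68907448, plus strand) encodes lipoprotein lipase. It had 9.83 and 10.1 in Ob against 11.8 and 13.6 in Ob + Exe, with the groups apart. The mean was 9.98 ± 0.209 (SD, n = 2) in Ob against 12.7 ± 1.30 (SD, n = 2) in Ob + Exe. The difference of 0.34 on the log2 scale (SE 0.231, 95% interval from -0.23 to 0.92) did not pass the test, and it stayed between 0.23 and 0.44 without each library.

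Cd36 (ENSMUSG00000002944.15, chr5:17781690-17888801, minus strand) encodes a fatty acid translocase that also sits on platelets and macrophages. It had 47.0 and 42.4 in Ob against 25.8 and 56.2 in Ob + Exe. The Ob + Exe libraries were the lowest and the highest of the 4, at 5157 and 10464 read equivalents, and Ob + Exe 1, the low value, is also the shallowest library. Its log2 fold change was -0.23 (SE 0.383, 95% interval from -1.17 to 0.71). Its sign rested on 1 library, with 0.32 without Ob + Exe 1 and -0.80 without Ob + Exe 2, where the unadjusted p in limma was 0.0196. 3 transcripts with different starts and the same protein of 472 residues shared the reads. Cd36-204, from the start at 17849792, held 12.2% and 48.3% of the FPKM in Ob against 97.8% and 100% in Ob + Exe. Cd36-201, from 17835696, held 68.7% and 5.53% in Ob against 2.23% and 0% in Ob + Exe. Cd36-206, from 17835717, close to the start of Cd36-201, held 16.6% and 46.2% in Ob but none in Ob + Exe. For Cd36-204 the groups were apart, though the Ob libraries differed widely. As for Pparg, such shares are uncertain because reads over shared exons are divided by a fit, and the shares were not tested.

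**Figure D4:**
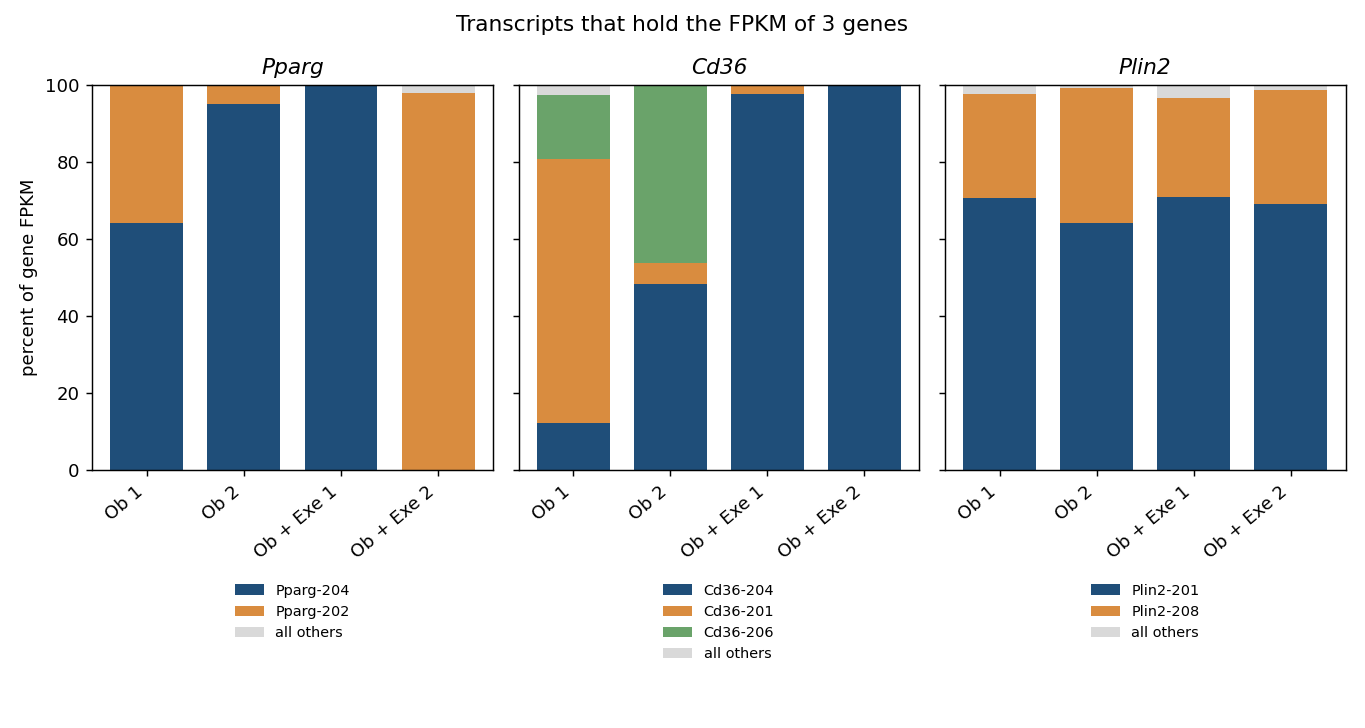
Percent of the FPKM of Pparg, Cd36 and Plin2 that each transcript held in each library, for transcripts with at least 10% in any library. The shares of Pparg-204 and Pparg-202 are exchanged in Ob + Exe 2, Cd36-204 holds nearly all in both Ob + Exe libraries, and Plin2-201 and Plin2-208 hold similar shares in all 4.

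Among markers of other marrow cells, those of macrophages went both ways, with 4 log2 fold changes above 0 and 5 below. The endothelial, platelet and erythroid lists lay mostly or wholly below 0. The macrophage sum over 9 genes was 133.3 and 159.6 in Ob against 162.3 and 136.6 in Ob + Exe. All 8 endothelial markers tested had log2 fold changes below 0, against 51.7% of all genes, and none was called. Their sum was 23.5 and 21.3 in Ob against 18.4 and 14.7 in Ob + Exe, the opposite direction to Fabp4. All 7 megakaryocyte and platelet markers were below 0 and 2, Gp1bb and Treml1, were called lower, against 2.74% of all genes called in that direction. Their sum was 470.7 and 345.5 in Ob against 380.3 and 143.3 in Ob + Exe. Of the 7 erythroid markers, 1 was above 0 and 6 were below, with none called. The erythroid sum was 57960 and 53160 in Ob against 41440 and 65450 in Ob + Exe, which is nearly all Hba-a1 and Hbb-bs, the globin genes. Its libraries stood in the order of Cd36, as did those of Hbb-bs and Slc4a1, whereas Hba-a1 and Alas2 were lowest in Ob + Exe 2, where Cd36 was highest. This order was looked for after the values were seen. No marker of these 4 lists was at 0 in all libraries, and their part in the levels of Fabp4, Lpl and Cd36 was not tested.

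Plin1, Plin2 and Plin3 coat the droplet. Plin2 (ENSMUSG00000028494.12, chr4:86648386-86670060, minus strand) encodes the perilipin that most cells with droplets carry. It was the highest member, with 69.1 and 61.3 in Ob against 79.7 and 99.7 in Ob + Exe. The groups did not overlap, and the second Ob + Exe library stood well above the first. The mean was 65.2 ± 5.52 (SD, n = 2) in Ob against 89.7 ± 14.1 (SD, n = 2) in Ob + Exe, a ratio of 1.38. The log2 fold change was 0.45 (SE 0.216, 95% interval from -0.08 to 0.99), and the unadjusted p in limma was 0.0820. With all 4 libraries kept, that p was under 0.05 only with the crossed pairing of replicate numbers, added after seeing the data. A noncoding transcript of 588 bases, Plin2-208, held 26.8% and 35.0% of the FPKM in Ob against 25.4% and 29.7% in Ob + Exe. In reads it was 9.82% to 14.4%, since FPKM weights short transcripts more. Without transcripts of this kind, Plin2 had 49.2 and 39.3 in Ob against 56.6 and 69.0 in Ob + Exe, and the log2 fold change was 0.51.

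Plin3 (ENSMUSG00000024197.10, chr17:56277476-56292873, minus strand) encodes a perilipin that moves from the cytoplasm to small new droplets. It had 5.93 and 5.76 in Ob against 6.996 and 4.98 in Ob + Exe, with the Ob + Exe libraries on either side. Its log2 fold change was 0.01 (SE 0.296, 95% interval from -0.72 to 0.74). The ratio of Plin2 to Plin3 was 11.7 and 10.6 in Ob against 11.4 and 20.03 in Ob + Exe, so 1 library stood apart. Plin1 (ENSMUSG00000030546.14, chr7:79720218-79732903, minus strand) had 11 read equivalents in the first Ob library, a scaled FPKM of 0.0551. It was listed at 0 in the other 3 and was below the minimum for the test. The first Ob library is also the deepest, and no difference between the groups was detectable at this depth.

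Pnpla2 and Lipe encode the lipases that act in sequence on the stored fat. Pnpla2 (ENSMUSG00000025509.15, chr7:141455198-141460743, plus strand), which encodes adipose triglyceride lipase (ATGL), takes the first fatty acid. It had 11.4 and 11.6 in Ob against 9.92 and 12.5 in Ob + Exe. Its log2 fold change was -0.05 (SE 0.243, 95% interval from -0.65 to 0.55), and this gene had the smallest spread of the members, with the highest library 1.26 times the lowest. Lipe (ENSMUSG00000003123.15, chr7:25379527-25398710, minus strand), which encodes hormone-sensitive lipase, takes the next. It had 6.39 and 6.78 in Ob against 9.37 and 4.92 in Ob + Exe, with a log2 fold change of 0.05 (SE 0.368, 95% interval from -0.86 to 0.96). The lipases ran in opposite directions in the Ob + Exe libraries. The ratio of Pnpla2 to Lipe was 1.79 and 1.71 in Ob against 1.06 and 2.55 in Ob + Exe, the lowest and the highest of the 4.

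The form of Lipe was the same in all libraries. Lipe-201, with 802 residues, held 94.99% and 93.7% of its FPKM in Ob against 97.0% and 89.9% in Ob + Exe. The gene is spanned by 4732471J01Rik on the other strand, with 0 to 59.6 read equivalents per library, and whether reads were counted by strand is not given in the sources used here. Its 30.1 to 59.6 read equivalents in the first 3 libraries are few beside the 1521 to 1947 of Lipe.

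The other genes of fat storage and release were read from 6 lists of 87 genes, of which 73 were tested. Of these, 44 had a log2 fold change above 0 and 29 one below 0, with a median of 0.10 (log2). Called were 3 genes, Cav1, Fabp5 and Retn, all higher in Ob + Exe, and 0 lower (limma). Over both directions the share was near the 3.74% of all genes. By direction, 1% of all genes were called higher and 2.74% lower, and the direction of the lists was not tested. At an unadjusted p under 0.05 there were 6, the 3 called genes with Dgat1 and G0s2, all higher, and Klf4, which was lower and is named after its value was seen (log2 fold change -0.87), against 5.05% of all genes. The groups did not overlap for 27 genes, 17 higher and 10 lower, against 32.6% of all genes.

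**Figure D5:**
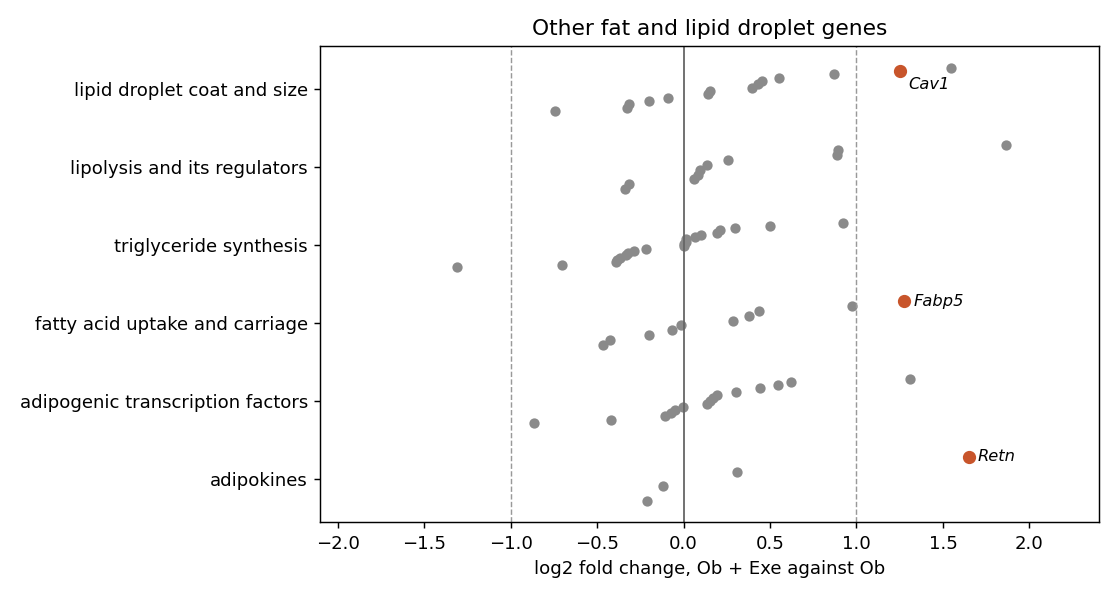
Log2 fold change of Ob + Exe against Ob (horizontal axis) of the genes tested in 6 lists, 1 point per gene, sorted upwards within a list. Orange points are the 3 called genes, dashed lines mark a log2 fold change of 1 in either direction, and 4 grey points (Plin5, Pnpla3 and Egr2 to the right, Mogat1 to the left) lie beyond these lines without passing the p threshold.

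Among fatty acid carriers, 10 were tested, 5 above 0 and 5 below. Fabp5, the relative of Fabp4 that prevails in skin and macrophages, rose by the study's thresholds. It had 18.3 and 24.8 in Ob against 55.4 and 48.4 in Ob + Exe, with a log2 fold change of 1.28 (SE 0.239, unadjusted p = 0.00196 and adjusted p = 0.941 in limma). It was called in all 15 alternative settings. The ratio of Fabp4 to Fabp5 was 3.24 and 2.30 in Ob against 1.87 and 1.61 in Ob + Exe, lower in both exercised libraries. Fabp5 has related copies in the genome, of which Fabp5l2 was listed at 0 in all libraries, so how shared reads were placed is uncertain. Lmf2, named after the maturation of lipases, had 15.2 and 21.95 in Ob against 15.6 and 16.3 in Ob + Exe.

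Of the 20 genes of triglyceride synthesis tested, 11 were above 0 and 9 below, and none was called. Dgat1, whose enzyme adds the last fatty acid to triglyceride, was the highest of them, with 97.7 and 134.4 in Ob against 205.3 and 230.8 in Ob + Exe. Its log2 fold change of 0.93 (SE 0.24, unadjusted p = 0.00904 and adjusted p = 0.959 in limma) was just short of the fold for a call, and it was called without Ob 2 (1.14) or without Ob + Exe 1 (1.001). Acsl1, which activates fatty acids, had 63.1 and 57.7 in Ob against 63.5 and 63.0 in Ob + Exe.

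Of the 10 genes of lipolysis tested, 8 were above 0 and 2 below, with none called. G0s2, whose protein binds and inhibits ATGL, had 19.6 and 16.0 in Ob against 40.3 and 27.0 in Ob + Exe. The difference was 0.89 on the log2 scale (SE 0.275, unadjusted p = 0.0183 and adjusted p = 0.959 in limma), and it was called without Ob + Exe 2 (1.17). The ratio of Pnpla2 to G0s2 was 0.582 and 0.728 in Ob against 0.246 and 0.464 in Ob + Exe, with the groups apart. Prkar2b, a regulatory subunit of protein kinase A, had 61.5 and 53.7 in Ob against 36.3 and 58.6 in Ob + Exe.

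Of the 14 genes of droplet coat and size tested, 9 were above 0 and 5 below. Cav1, the main protein of caveolae, was called at low levels, with 0.471 and 0.428 in Ob against 1.11 and 1.31 in Ob + Exe. The difference was 1.25 on the log2 scale (SE 0.499, unadjusted p = 0.0475 and adjusted p = 0.959 in limma). The call was lost in 10 alternative settings, each left-out library among them, and with the replicate number as a block its unadjusted p in limma was 0.106. Aup1, a droplet protein, had 81.2 and 80.1 in Ob against 68.7 and 71.5 in Ob + Exe, which is -0.20 on the log2 scale. Without its noncoding transcripts this value was -2.49 (SE 1.822). Htra2 overlaps it on the other strand, at 32.7 to 65.2 FPKM per library, and the part of either in the value was not tested. Hsd17b11, an enzyme found on droplets, had 39.8 and 25.6 in Ob against 28.2 and 44.7 in Ob + Exe.

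Of the 15 adipogenic transcription factors tested, 9 were above 0 and 6 below, with none called. Cebpb, an early factor of fat cell formation, had 67.4 and 83.3 in Ob against 73.4 and 96.5 in Ob + Exe. Cebpd, its partner, had 28.0 and 25.2 in Ob against 32.9 and 39.6 in Ob + Exe, which is 0.44 on the log2 scale (SE 0.214) with the groups apart. Both genes are also used by myeloid cells. Of 9 adipokine genes, 4 passed the minimum and 2 of these were above 0. Retn, which encodes resistin, was called with 0.991 and 1.53 in Ob against 5.44 and 3.07 in Ob + Exe. Its log2 fold change was 1.65 (SE 0.453, unadjusted p = 0.0115 and adjusted p = 0.959 in limma). The call was lost without Ob 1 (1.35), without Ob 2 (1.93) or without Ob + Exe 1 (1.24). Nampt had 19.5 and 22.04 in Ob against 22.7 and 29.2 in Ob + Exe.

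Myeloid cells fill much of the marrow around the stroma. The neutrophil sum over 8 genes was 46670 and 26750 in Ob against 34150 and 62890 in Ob + Exe, and the monocyte sum over 6 genes was 534.4 and 469.7 in Ob against 482.2 and 559.9 in Ob + Exe. Both sums overlapped between the groups, but single markers did not all do so. Of the 6 monocyte markers, Ccr2, F13a1 and Ms4a6c were higher in both Ob + Exe libraries, and the other 3 had log2 fold changes below 0. Of the 8 neutrophil markers, 7 had log2 fold changes above 0 and 1 below, against 48.3% of all genes above 0. Camp alone of them was higher in both Ob + Exe libraries. Among all genes, 14.3% had both Ob + Exe libraries above both Ob libraries. Ccr2 had 54.8 and 52.7 in Ob against 58.5 and 64.7 in Ob + Exe. Among 4 general leukocyte markers, all with log2 fold changes above 0, Ptprc was apart with 116.7 and 103.5 in Ob against 137.6 and 190.7 in Ob + Exe. None of these markers was called, they are named after their values were seen, and the part of myeloid cells in the levels of Fabp4, Plin2, Fabp5, Dgat1 and G0s2 was not tested. The B cell sum over 7 genes was 194.7 and 201.8 in Ob against 154.5 and 122.8 in Ob + Exe, and 2 of its genes, Cd79a and Igll1, were called lower, against 2.74% of all genes. The sum of 7 skeletal muscle genes was 9.76 and 5.72 in Ob against 13.4 and 13.3 in Ob + Exe, which was higher in both exercised libraries, with Acta1 called higher, against 1% of all genes. The called markers are named after their values were seen, and the part of muscle in the level of Lpl and Fabp4 was not tested.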

How the data were processed

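RNA-seq of tibial marrow from 2 Ob and 2 Ob + Exe mice was examined. According to the methods and labels, the authors removed adapters with fastp, mapped reads to GRCm38 with HISAT2 and quantified transcripts with StringTie. For each transcript, the authors deposited the coverage (a signal not normalized for depth) and the FPKM, which is that coverage divided by a constant per library. Whole reads could not be recovered, so read equivalents are coverage times length over 150 bases, and the authors' DESeq2 test was not applicable.

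FPKM were summed per gene, scaled by median of ratios and tested as log2(FPKM + 0.1) with limma 3.58.1 in R 4.3.3 (eBayes with intensity trend, 2 residual and 3.79 prior degrees of freedom), for 18596 genes that reached a mean of 0.1. Fold changes understate low genes. The test was checked on simulated data. Tables were handled with Python 3.11.15. Transcripts were annotated with GENCODE vM21, in which 54 of 54 member transcripts had the same coordinates. Named genes are all members, called genes of 6 lists and the 2 highest of each list. Members and lists were chosen with earlier results of these data known. The 37 mitochondrial transcripts were listed at 0 throughout.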

Additional observations from a re-analysis of the deposited data

How the results depend on the processing

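No member was called in any of the 15 alternative settings. The 696 calls over all genes became 267 with a minimum mean FPKM of 1, 222 with a pseudocount of 1, 459 with limma voom and 1060 without the intensity trend, and ranged from 746 to 1919 when 1 library was left out. The median of the members then ranged from 0.006 to 0.354. Leaving out 1 library leaves a lone mouse that is assumed to vary like the other group. Of 135 alternative values of single members, 123 kept their sign and 12 reversed, 9 of them without 1 library: Adipoq (-0.27 to 0.81), Pparg (-0.37 to 0.39), Cd36 (-0.80 to 0.32), Plin3 (-0.24 to 0.24), Pnpla2 (-0.23 to 0.11) and Lipe (-0.42 to 0.49). Without scaling, which moved the median of all genes to -0.10, Pparg was -0.065, Plin3 -0.073, Lipe -0.041 and Acsl1 -0.02. Acsl1 was -0.055 with limma voom and ranged from -0.008 to 0.126 without 1 library. Likewise Hsd17b11 ranged from -0.19 to 0.48, Prkar2b from -0.675 to 0.018, Lmf2 from -0.466 to 0.053 and Cebpb from -0.04 to 0.36. Lmf2 was -1.29 without noncoding transcripts. The cause of these shifts was not tested.

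The replicate numbers do not pair the mice in the labels, and across genes the differences between replicates 1 and 2 correlated between the groups at -0.106 (-0.235 at a mean FPKM of at least 1). With the replicate block, 742 genes were called, and limma gave 18 an adjusted p under 0.05. Crossing the numbers, a pairing added after seeing the data, gave 803 and 11. Among named genes the block changed the call of Cav1 alone. The 2 libraries per group limit the precision of all these values.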
